A study of Drosophila melanogaster with 2 samples.

Results

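Of 6614 peak summits of woc-eGFP, a tagged zinc finger protein, on the chromosome arms of Drosophila melanogaster larvae, 583 lay between protein-coding genes and near one of them (8.81%, exact 95% interval 8.14 to 9.52). They were chosen from the list of reproducible peaks by position alone. Each summit lay outside every protein-coding gene body of the Ensembl BDGP6 annotation, and the nearest transcription start site (TSS) of a protein-coding transcript was more than 500 and at most 5000 bp away. "Intergenic" is used below in this sense, and 76 of the 583 summits (13.0%) lay inside an annotated noncoding gene. The rule itself used no signal, but the list it starts from had passed a step on the agreement of both libraries, so signal and library agreement are not free of selection. Sequence entered neither step.

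The chromatin came from a transgenic line that stably expressed woc with GFP at its C-terminus. Larvae of both sexes, wandering in the third instar, were pooled and used whole, and sonicated DNA was recovered with an anti-GFP antibody. The 2 libraries (biological replicates 3 and 1 of 1 line) formed a single group with no second condition, so every comparison below is a description without a test. The values are peak positions on the build dm6 and the signal of each peak, as the authors' peak caller gave it with a control alignment. What the signal measures is not stated, nor is any scaling between lists, and the depth of each library is unknown. Peaks of a whole larva mix all its tissues, so no tissue can be named for any summit, and the nearest gene names a position and not a target.

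The gene woc (without children) encodes a nuclear protein with several zinc fingers, and its loss impairs ecdysone synthesis and disturbs telomere capping in flies. It works with the heterochromatin protein HP1c and the zinc finger protein row at the promoters of active genes. DNA outside genes holds other kinds of elements as well. Enhancers raise the transcription of a gene at a distance, insulators separate neighbouring genes, and many stretches start noncoding RNAs.

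The sequences below are those around the strongest intergenic summits, and were read from the RefSeq dm6 genome. They are the 7 summits of highest signal whose window of 201 bases, centred on the summit, overlapped no annotated exon, with the chromosome arms from which sequence is printed limited to 2L, 3L, 3R and X. Each is the plus strand, and capitals mark either strand of the 6 hexamers that were most over-represented around the 583 summits (named, with their values, in the next paragraphs).
CG31668 summit, chr2L:2202334-2202534: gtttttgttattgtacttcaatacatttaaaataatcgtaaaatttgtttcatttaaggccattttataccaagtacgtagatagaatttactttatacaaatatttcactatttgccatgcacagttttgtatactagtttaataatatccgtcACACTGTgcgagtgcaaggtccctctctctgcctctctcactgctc
CG43245 summit, chr3L:10776464-10776664: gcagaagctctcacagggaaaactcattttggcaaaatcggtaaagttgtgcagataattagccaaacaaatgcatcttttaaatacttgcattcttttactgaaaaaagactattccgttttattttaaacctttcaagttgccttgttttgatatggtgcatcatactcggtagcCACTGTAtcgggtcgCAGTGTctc
ds summit, chr2L:715473-715673: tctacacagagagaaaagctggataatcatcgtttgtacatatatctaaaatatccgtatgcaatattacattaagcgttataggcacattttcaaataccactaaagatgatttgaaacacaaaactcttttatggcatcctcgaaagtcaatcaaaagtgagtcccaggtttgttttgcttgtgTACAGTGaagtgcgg
E(spl)malpha-BFM summit, chr3R:26008994-26009194: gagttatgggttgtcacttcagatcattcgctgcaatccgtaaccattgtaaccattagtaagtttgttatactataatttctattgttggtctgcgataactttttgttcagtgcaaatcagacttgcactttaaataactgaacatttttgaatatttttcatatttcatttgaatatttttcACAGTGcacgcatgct
tara summit, chr3R:16222382-16222582: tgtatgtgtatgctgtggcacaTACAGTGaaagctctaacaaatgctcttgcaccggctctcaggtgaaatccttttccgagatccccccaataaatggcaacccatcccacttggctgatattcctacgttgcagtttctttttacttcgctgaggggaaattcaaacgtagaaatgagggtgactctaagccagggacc
hng3 summit, chr3L:760268-760468: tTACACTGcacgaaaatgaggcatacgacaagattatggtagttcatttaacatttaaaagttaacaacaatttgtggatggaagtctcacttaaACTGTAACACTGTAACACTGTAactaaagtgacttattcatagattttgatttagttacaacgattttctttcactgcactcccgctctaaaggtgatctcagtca
Act5C summit, chrX:5896017-5896217: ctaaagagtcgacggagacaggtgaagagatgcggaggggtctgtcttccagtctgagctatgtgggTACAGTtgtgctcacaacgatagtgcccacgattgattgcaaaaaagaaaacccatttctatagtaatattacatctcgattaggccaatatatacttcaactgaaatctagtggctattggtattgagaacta

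Each of these 7 windows held at least 1 of the 6 hexamers, which were picked as the leading ones over all 583 summits and were led by ACAGTG. The next 2 windows by signal, 546 bp upstream of Act5C and 2527 bp upstream of Gr93d, held none. Of the 30 windows of highest signal without exon overlap on these arms and chromosome 4, 23 held at least 1. In the windows nearest to CG31668, CG43245, ds and tara, the leading hexamer was joined to a second hexamer that overlapped it, giving one longer run of capitals. At hng3 the overlapping letters of ACACTG and ACTGTA recurred at the summit itself, and further capitals lay at the left edge of the window. GC content ranged from 32.3% at the E(spl)malpha-BFM summit to 46.8% at the tara summit.

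The hexamer ACAGTG, counted on both strands within 100 bp of a summit, was present at 18.5% of the intergenic summits and in 6.90% of 70418 adjoining windows of the same length that tile the eligible sequence, meaning the arm sequence that meets the same rule. The hexamers AGGGTA (12.2% of summits, 4.88% of tiles), ATACCC (14.8% and 6.67%), ACTGTA (13.6% and 6.41%), ACACTG (15.1% and 7.23%) and AGTGTA (16.0% and 7.65%) followed. They are the 6 with the highest ratio to the tiles among hexamers found at 10% or more of the summits, so their order was picked from these same windows and their shares are a description. They overlap one another: ACAGTG with ACTGTA in TACAGTG, and AGGGTA with ATACCC read from the other strand. At least 1 of the 6 was present at 322 of the 583 summits (55.2%), against 28.7% of the tiles. The same share was 47.1% at promoter summits (within 500 bp of a protein-coding TSS), 57.6% in gene bodies away from start sites and 51.8% at intergenic summits beyond 5000 bp, so the letters were shared with the rest of the list.

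Narrowing the window to 50 bp each side left ACAGTG at 11.0% of the intergenic summits and 3.46% of the tiles, a ratio of 3.17 against 2.69 for the wider window. The ratio also rose for AGGGTA (2.50 to 2.69), ATACCC (2.21 to 2.65) and ACACTG (2.09 to 2.32). It did not rise for ACTGTA (2.11 to 2.08) or AGTGTA (2.09 to 2.06). Among the 116 occurrences of ACAGTG within 100 bp of the summits there was a G directly after the hexamer in 45.7%, a C directly before it in 41.4%, and a G one base earlier in 46.6%. The median signal was 155 at the 261 summits with none of the 6 hexamers and 180 at the 322 with 1 or more. A match is a description of letters and not a binding site.

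Known motifs were each searched by their exact letters on both strands of the same windows. TATCGATA, the DREF element, was present at 9 intergenic summits (1.54%, exact 95% interval 0.708 to 2.91), 7.36% of promoter summits, 0.406% of gene body summits and 0.427% of the tiles. Taken from the top list of 1 library alone, its share at intergenic summits was 1.01% in replicate 3 and 0.938% in replicate 1. GGTCACAC, core promoter motif 1, was present at 1 intergenic summit (0.172%), against 4.65% of promoter summits and 0.264% of tiles. From 1 library alone it was at 0.168% in replicate 3 and at none in replicate 1. CACGTG, the E-box of basic helix-loop-helix proteins, was present at 3.26% of intergenic summits, 2.50% of promoter summits and 2.46% of tiles, and at 5.2% of the intergenic summits when the optimal peaks below the median signal were left out. GAGAG, the element of GAGA factor, was found at 20.9% of intergenic summits and in 19.6% of tiles. AGGTCA, an element of nuclear receptors, was present at 1.72% of intergenic summits and 4.77% of tiles, and CCGGAA, the ETS element, at 1.54% and 5.46%. Without the peaks below the median signal AGGTCA stood at 0.8%. TGACGTCA, the CREB element, was present at 0 of 583 intergenic summits, which allows a share of up to 0.515% (3 counts of 583), and in 0.278% of tiles. It was present at 0.335% of the intergenic summits in the top list of replicate 3, at none in that of replicate 1, and at 0.343% in windows of 150 bp each side. No match says only that these letters were not in the window. For many of the motifs, the share at promoter summits lay inside the exact 95% interval at intergenic summits. Examples are TAATTA, the homeodomain element (15.1% of intergenic and 16.1% of promoter summits), and GGAATG, the TEAD element (7.03% and 7.25%). The same held for the GAGA factor element, the E-box and the nuclear receptor element. It did not hold for the DREF element, core promoter motif 1 or the ETS element, among others. The TEAD element was in 9.98% of tiles, above its interval at intergenic summits (5.09 to 9.42). Of the 19 motifs searched, the others ranged at intergenic summits from 1.37% for CAGGTAG, the Zelda element, to 22.3% for CGATA.

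GC content fell towards the summit. It averaged 37.6% ± 7.23 (SD over 583 summits) within 100 bp of the intergenic summits and 40.4% ± 8.41 in the tiles. In windows of 20 bp it was 36.5% at the summit, 43.3% at 300 bp before it and 43.6% at 300 bp after it. Promoter summits averaged 36.7% within 100 bp, gene body summits 37.3% and intergenic summits beyond 5000 bp 37.1%. All 4 classes of summit thus averaged less than the tiles. The tiles cover only sequence that meets the intergenic rule, so they are no background for the other classes. At 300 bp before the summit, GC content was 42.0% for promoter summits, 44.4% for gene body summits and 45.0% for intergenic summits beyond 5000 bp. The flanks of the 583 intergenic summits at 300 bp, given above, also stood above the 40.4% of the tiles.

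**Figure D1:**
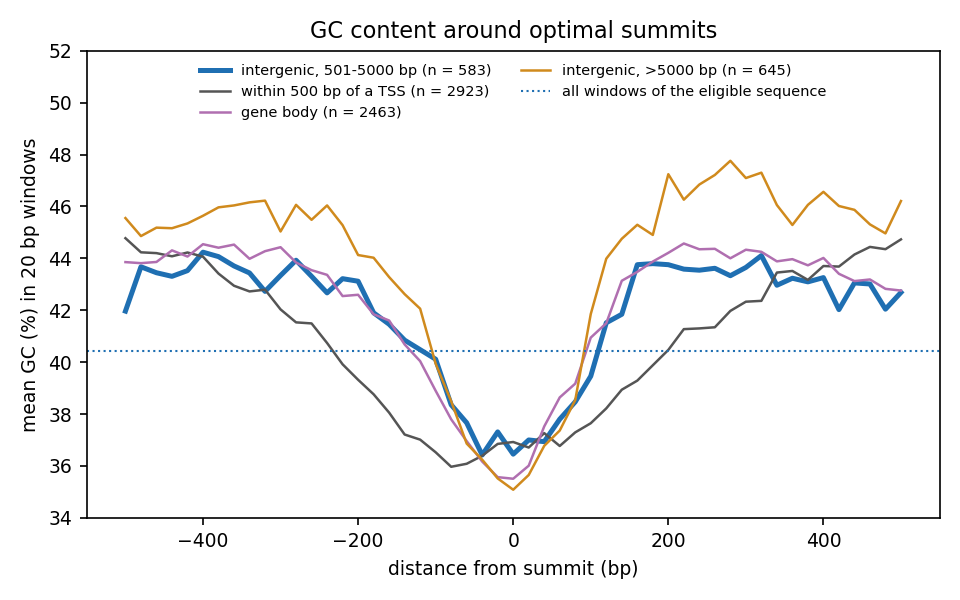
Mean GC content (%) in windows of 20 bp by distance from the summit, for the 583 intergenic summits up to 5000 bp from a TSS (thick blue) and the other 3 classes of summit; the dotted line is the mean over all tiles of the eligible sequence. The blue line falls to 36.5% at the summit and stands at 43.6% 300 bp after it.

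The 583 summits lay in 14.2 Mb of sequence that met the same rule, or 41.2 summits per Mb. Sequence within 500 bp of a protein-coding TSS held 191 per Mb, gene bodies away from start sites 31.4, and intergenic sequence beyond 5000 bp 24.8. Within the intergenic sequence the density was highest near genes: 56.8 per Mb up to 1000 bp from the TSS (129 summits), 46.0 above 1000 and up to 2000 bp (172), 33.2 above 2000 and up to 3500 bp (151) and 36.5 above 3500 and up to 5000 bp (131). Median signal in these bins was 181, 175, 167 and 162, and across summits signal and distance had a Spearman rho of -0.0959 (n = 583 summits of 1 list, which are not independent). Density was thus highest in the bin nearest the TSS, while the medians of signal differed by less than the spread between the quartiles of any bin.

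**Figure D2:**
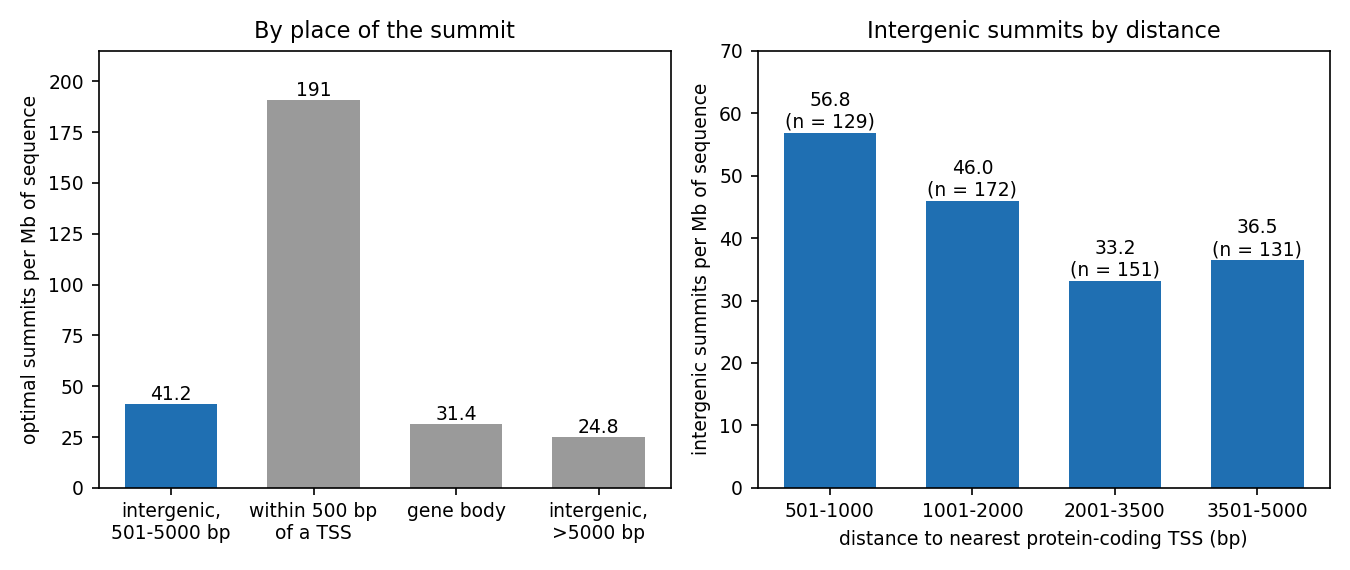
Optimal summits per Mb of sequence, by place of the summit (left; the 583 intergenic summits in blue, the other classes in grey) and, for the intergenic summits, by distance to the nearest protein-coding TSS in bp (right; n is the number of summits). The intergenic summits stand at 41.2 per Mb, below the 191 per Mb near start sites, and the bin nearest the TSS at 56.8 per Mb.

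By chromosome arm, density ran from 32.7 per Mb on X (72 summits) and 33.8 on 2R (87) through 36.0 on 3R (125) and 42.9 on 2L (124) to 57.5 on 3L (167). Chromosome 4 had 71.6 per Mb, but from 8 summits in 0.112 Mb. The strongest intergenic summit of chromosome 4 lay 777 bp upstream of ey, the Pax6 gene of eye development, with a pooled signal of 541. Replicate 3 gave it 360 and replicate 1 gave it 184. The strongest of 2R lay 4855 bp downstream of the yip3 TSS (summit 23240544), with a pooled signal of 757, 571 in replicate 3 and 190 in replicate 1.

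At the edges of the rule, signals just inside and just outside the limits overlapped. Just inside the lower limit, the summits nearest to CG10337 (502 bp), dl (510 bp) and by (511 bp) had pooled signals of 115.3, 175 and 527. Just outside it, those nearest to zormin (493 bp), Tob (494 bp) and Nep2 (498 bp) had 405, 116 and 172. Just inside the upper limit, the summits nearest to CG12290 (4958 bp), CG44362 (4980 bp) and CG13481 (4984 bp) had 117, 107 and 185, and just outside it those nearest to Fer2LCH (5007 bp), CG14147 (5025 bp) and laf (5025 bp) had 147, 198 and 183.

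Signal at the 583 summits ran from 100.002 to 1525, with a median of 169 (quartiles 127 and 253). The median was 204 at promoter summits, 170 in gene bodies and 163 at intergenic summits beyond 5000 bp. The ratio of the intergenic to the promoter median was 0.829 in the pooled list, 0.821 when both were taken from the highest peaks of replicate 3 and 0.828 from those of replicate 1. Intergenic summits made up 8.31% of the strongest 10% of the list (55 summits), 6.05% of the next 10% and 9.67% of the weakest 10%. Median peak width was 510 bp in every class.

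**Figure D3:**
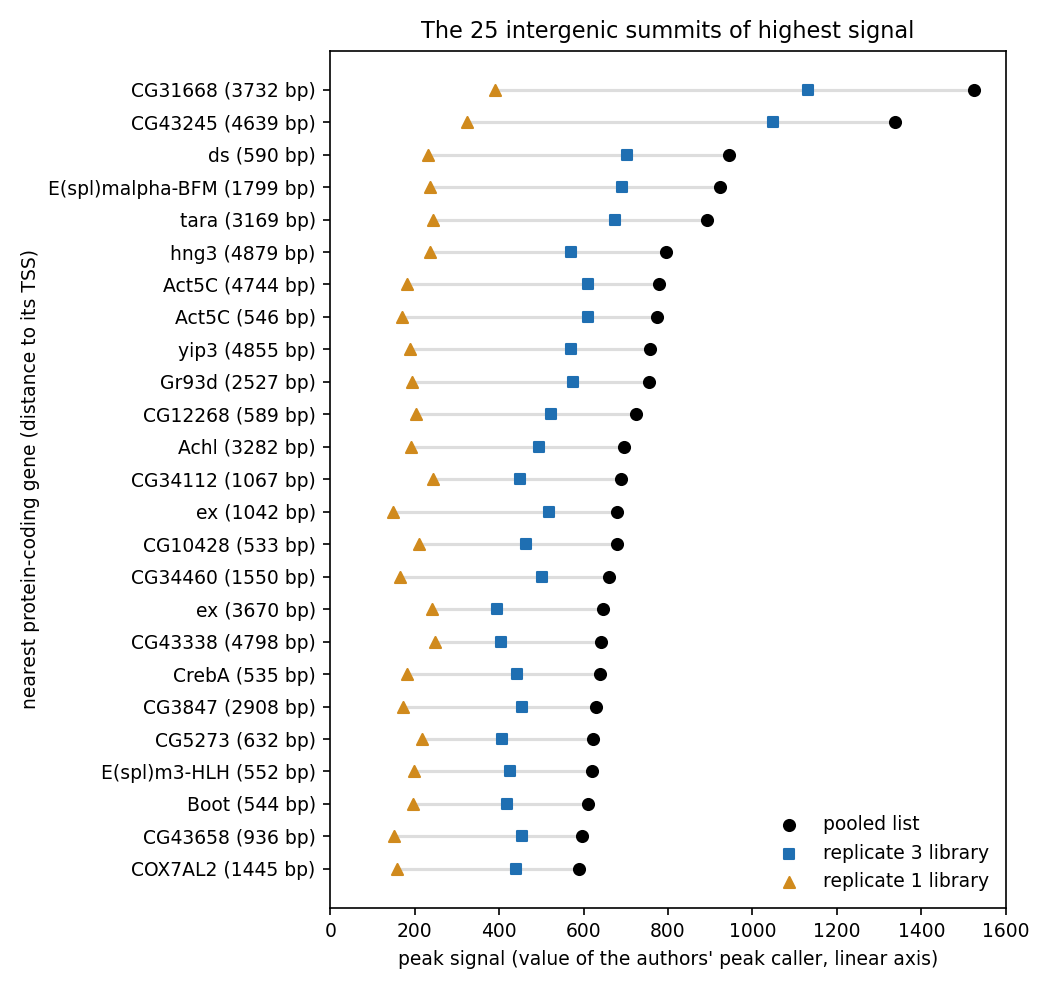
Peak signal on a linear axis for the 25 intergenic summits of highest pooled signal, in the pooled list (black circles), the replicate 3 library (blue squares) and the replicate 1 library (orange triangles), with the nearest protein-coding gene and the distance to its TSS at the left. At each of the 25 the replicate 3 value lies above the replicate 1 value; the top row, CG31668, stands at 1525, 1133 and 390.

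The strongest intergenic summit lay between COX7AL2 and CG31668 on 2L, in a gap of 5808 bp between the gene bodies that held 4 intergenic summits. Its pooled signal was 1525, with 1133 in replicate 3 and 390 in replicate 1, at 3732 bp downstream of the CG31668 TSS. The other 3 summits of the gap were nearest to COX7AL2, named for a subunit of cytochrome c oxidase, and had pooled signals of 588, 191 and 130. At the summit with 191, the library values were 94.96 in replicate 3 and 104 in replicate 1, the reverse of the order at the strongest summit of the same gap.

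The summit of CG43245 on 3L (10776564) came next, 4639 bp from its TSS in a gap of 27790 bp. It had a pooled signal of 1338, 1048 in replicate 3 and 323 in replicate 1. The third lay 590 bp upstream of ds, which encodes the atypical cadherin Dachsous of planar polarity and Hippo signalling, with a pooled signal of 943, 704 in replicate 3 and 231 in replicate 1. A second gene of Hippo growth control, ex (expanded), had 4 intergenic summits in the gap of 5905 bp between BBS8 and its own start. They formed 2 pairs. The pair at 838 and 1042 bp upstream had pooled signals of 345 and 679, and the pair at 3470 and 3670 bp upstream had 334 and 645. The stronger summit of the near pair had 518 in replicate 3 and 148 in replicate 1, and that of the far pair 395 and 240. The weaker summits had library peaks of their own, with 236 in replicate 3 and 94.4 in replicate 1 in the near pair and 270 and 47.1 in the far pair. The promoter of ex held no optimal summit, while the neighbouring BBS8 promoter had one of 435.

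In the Enhancer of split complex, a cluster of Notch target genes on 3R, 7 intergenic summits stood beside 9 promoter summits. The intergenic ones had pooled signals of 131 to 922 and the promoter ones 101 to 607. The strongest, 1799 bp upstream of E(spl)malpha-BFM, a Bearded family gene, had 922, with 691 in replicate 3 and 236 in replicate 1. Its own promoter summit, 128 bp from the TSS, had 109. At E(spl)m3-HLH, a basic helix-loop-helix repressor gene, the summit 552 bp upstream had 620 and a promoter summit 267 bp nearer the gene had 607. The highest library peaks overlapping both were the same, 425 in replicate 3 and 199 in replicate 1. The summit 552 bp upstream lay inside a top peak of replicate 1 and inside none of replicate 3, a top list being a library's highest peaks, as many as the optimal list holds. The summit 797 bp upstream of E(spl)m2-BFM had 509, with 398 in replicate 3 and 127 in replicate 1.

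Act5C, one of the cytoplasmic actin genes, had 3 intergenic summits upstream, at 4744, 3569 and 546 bp. The outer and inner ones had nearly the same signal, 779 and 774, and that between them 180. In the libraries the outer summit had 610 in replicate 3 and 182 in replicate 1, and the inner one 610 and 171. The inner one shared its peak interval with a promoter summit of 670, 206 bp away. Beyond 5000 bp the same gap between CG16721 and Act5C held 6 more summits, of 104 to 669. The summit 3169 bp upstream of tara, which interacts genetically with trithorax and Polycomb group genes, had 892, with 674 in replicate 3 and 243 in replicate 1.

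Further summits among the strongest lay near genes of quite different roles. The summit 535 bp upstream of CrebA, a bZIP activator of secretory pathway genes, had 639, with 443 in replicate 3 and 181 in replicate 1. The summit 3360 bp downstream of the TSS of CycB, the mitotic cyclin gene, had 563, with 447 in replicate 3 and 118 in replicate 1. The summit 2527 bp upstream of Gr93d, a gustatory receptor gene, had 754, with 576 in replicate 3 and 194 in replicate 1, and 3 summits in all were nearest to that gene.

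Most of the nearest genes had 1 summit. The 583 summits had 408 nearest genes, of which 289 had 1 summit, 77 had 2, 31 had 3 and 11 had 4 or more. These 408 are 2.93% of the 13945 protein-coding genes on the arms. CG6168 had 6 (pooled signal 113 to 366) and Rh5, the gene of a blue-sensitive rhodopsin, 5 (234 to 572, in 3 merged regions). The genes with 4 were CG11550, CG13898, CG42808, CG43759, ci, dally, ex, glec and trbl. Of these, ci encodes the transcription factor of Hedgehog signalling and dally a glypican that binds Wingless and Decapentaplegic, and their 4 summits ran from 106 to 158 and from 102 to 157. Those of ex were the strongest of the 4-summit genes by median, at 495. With overlapping peaks merged, the summits of ci and of ex lay in 2 regions each and those of CG13898 in 4. Those of each other 4-summit gene lay in 3 regions, and those of CG6168 in 5.

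Many summits had a close neighbour in the list. Another optimal summit lay within 300 bp of 150 intergenic summits (25.7%) and within 1000 bp of 241 (41.3%), the smallest spacing in the list was 199 bp, and 29 shared their interval with another summit. The same shares for the other classes are not given here, so closeness is not shown to be particular to intergenic summits. Merging overlapping peaks left 520 regions. Neighbouring summits are therefore not independent, and the exact intervals given here cover counting error over summits alone.

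The intergenic summits lay mostly upstream. The nearest gene was transcribed away from 462 of them (79.2%, exact 95% interval 75.7 to 82.5), against 69.5% of the eligible sequence. This share fell with distance, at 98.4% up to 1000 bp, 85.5% up to 2000 bp, 68.2% up to 3500 bp and 64.9% up to 5000 bp, each bin starting where the last one ended. The upstream share of the eligible sequence fell likewise over these bins, at 88.2%, 74.1%, 63.8% and 59.9%. The 2 flanking genes were in tandem at 297 summits (50.9%), diverged at 209 (35.8%) and converged at 77 (13.2%). Of the eligible sequence 52.4% lay in tandem gaps, 31.1% in divergent and 16.3% in convergent ones. Median signal was 173 in tandem gaps, 170 in divergent gaps and 157 in convergent gaps.

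The nearest gene had a promoter summit of its own, within 500 bp of one of its start sites, at 179 of the 583 summits (30.7%, exact 95% interval 27.0 to 34.6). The nearest gene was so bound over 12.8% of the eligible sequence, and 21.9% of all protein-coding genes had such a summit. Neither flanking gene was bound at 292 summits (50.1%), 1 was at 233 (40.0%) and both were at 58 (9.95%). Shares of the eligible sequence by bound flanking genes are not given here, so these counts cannot be called high or low. Median signal was 169 over the 179 summits whose nearest gene was bound and 169 over the 404 others. The share depends on the window, at 21.1% with 250 bp and 48.5% with 1000 bp. With 1000 bp, the 129 intergenic summits up to 1000 bp from a TSS count by construction as promoter summits of their own nearest gene. The share was 19.6% when the optimal peaks below the median signal were left out, where fewer promoters count as bound.

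Noncoding genes lay near a minority of the summits. A noncoding TSS was within 500 bp of 88 summits (15.1%), against 6.34% of the eligible sequence, and 76 (13.0%) lay in a noncoding gene, against 7.67%. At 463 (79.4%) neither held. Of the 88 summits, 82 were next to starts listed as ncRNA, 3 next to tRNA gene starts and 1 next to a snRNA gene start. The other 2 were both next to the start of the pseudogene CR42490. The strongest was the inner Act5C summit, next to lncRNA:CR45668. The summit nearest to Boot lay 71 bp from the start of Uhg4, a snoRNA host gene, and had 611, with 419 in replicate 3 and 197 in replicate 1. A summit of 495 lay near the start of lncRNA:Hsromega, the heat-inducible RNA of nuclear omega speckles, with 341 in replicate 3 and 164 in replicate 1. Summits with a noncoding gene or start had a median signal of 163 (n = 120) and the others 173 (n = 463). Annotated transposable elements held 2 summits (0.343%), nearest to ed and e(y)2b, against 6.09% of the eligible sequence; mappability of reads there was not tested.

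The libraries differed at the intergenic summits. The ratio of replicate 3 to replicate 1 signal had a median of 2.34 (quartiles 1.68 and 3.02, n = 580 summits with a peak in both libraries' relaxed lists) and was above 1 at 555. The median ratio was 1.72 at promoter summits, 2.47 in gene bodies and 2.47 at intergenic summits beyond 5000 bp. The ratio was 2.13 in the bin nearest to start sites and 2.42 in the farthest. With no stated scaling the size of the ratio describes these lists only, while its order across classes was taken within the same lists.

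Of the 583 summits, 389 (66.7%, exact 95% interval 62.7 to 70.5) lay in a top peak of both libraries, against 70.9% of all optimal summits on the arms. The share was 77.0% at promoter summits, 66.1% in gene bodies and 65.0% at intergenic summits beyond 5000 bp. A further 141 (24.2%) were in the top list of replicate 3 alone, 45 (7.72%) in that of replicate 1 alone and 8 in neither. At promoter summits the shares in replicate 3 alone and in replicate 1 alone were 10.6% and 11.5%. The libraries' signals had a Spearman rho of 0.651 across the intergenic summits (n = 580) and 0.772 across promoter summits. Summits of 1 library are not independent, and both libraries entered the pooled list that chose them.

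**Figure D4:**
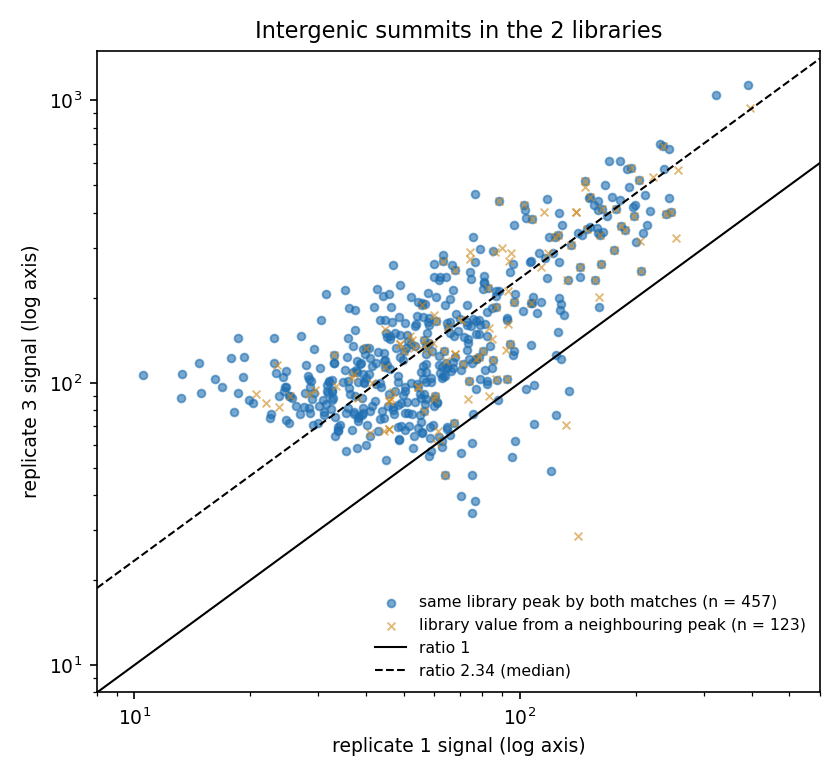
Signal in the replicate 3 library against signal in the replicate 1 library for the 580 intergenic summits with a peak in both (log axes); crosses are summits whose highest overlapping library peak belongs to a neighbouring summit. The solid line marks a ratio of 1 and the dashed line the median of 2.34, and 555 summits lie above the solid line.

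Among the summits at or above the median signal the ratio, taken from the highest overlapping library peaks, reached 6.56 at CG42813, with 206 in replicate 3 and 31.4 in replicate 1. It was 6.08 at CG13898 (466 and 76.6), 6.05 at the cuticle protein gene Cpr12A (213 and 35.2), 5.57 at the growth regulator gene Myc (261 and 46.8) and 5.48 at CG5568 (167 and 30.4). At CG42813, Cpr12A and CG5568 the replicate 1 value lay below every peak of that library's top list. At the other end it was 0.536 at Thor, which encodes the translation inhibitor 4E-BP, with 70.8 in replicate 3 and 132 in replicate 1. At Thor the replicate 3 value came from a neighbouring peak, and the peak of nearest summit had 18.3. The ratio was 0.622 at the pseudokinase gene trbl (77.1 in replicate 3 and 124 in replicate 1), 0.695 at blow, a gene of myoblast fusion (93.5 and 135), and 0.896 at kek4 (97.8 and 109), whose summit lay in the U2 snRNA gene snRNA:U2:34ABb. The trbl summit lay 41 bp from the start of lncRNA:CR45973.

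At 457 of the 583 summits (78.4%) the highest overlapping peak in each library was also the one of nearest summit. At these the median ratio was 2.36, and with the nearest summit used throughout it was 2.30. Single summits moved more. Among those at or above the median signal, the ratio from the peaks of nearest summit was highest at a vri summit 1090 bp from the TSS, at 14.8 (338 in replicate 3 and 22.8 in replicate 1), against 4.18 from the highest peaks. Ama followed at 10.2 (173 and 17.0), ahead of CG42813 at 6.56. It was lowest at Thor, at 0.139, and at the ey summit 575 bp upstream, at 0.258 (26.4 and 102), against 1.96 from the highest peaks. The nearest library summits lay a median of 14 bp away in replicate 3 and 19.5 bp in replicate 1.

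Gene lists differed in how many of their genes had an intergenic summit. The lists were chosen with earlier results of these data known, so the counts are a description. Over all protein-coding genes 2.93% were nearest to an intergenic summit, at 41.2 summits per Mb of eligible sequence. Among 28 ecdysone response genes 8 were (28.6%), at 208 summits per Mb, from 12 summits in 0.0576 Mb. Among 40 growth, stress and clock genes 10 were (25%), at 231 per Mb, from 14 summits in 0.0606 Mb. Among 72 zinc finger, basic helix-loop-helix and other patterning regulators 13 were (18.1%), at 62.7 per Mb, from 17 summits in 0.271 Mb. The other transcription factor list, of 53 Hox and homeobox genes, had 1 (ey), at 10.5 per Mb.

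**Figure D5:**
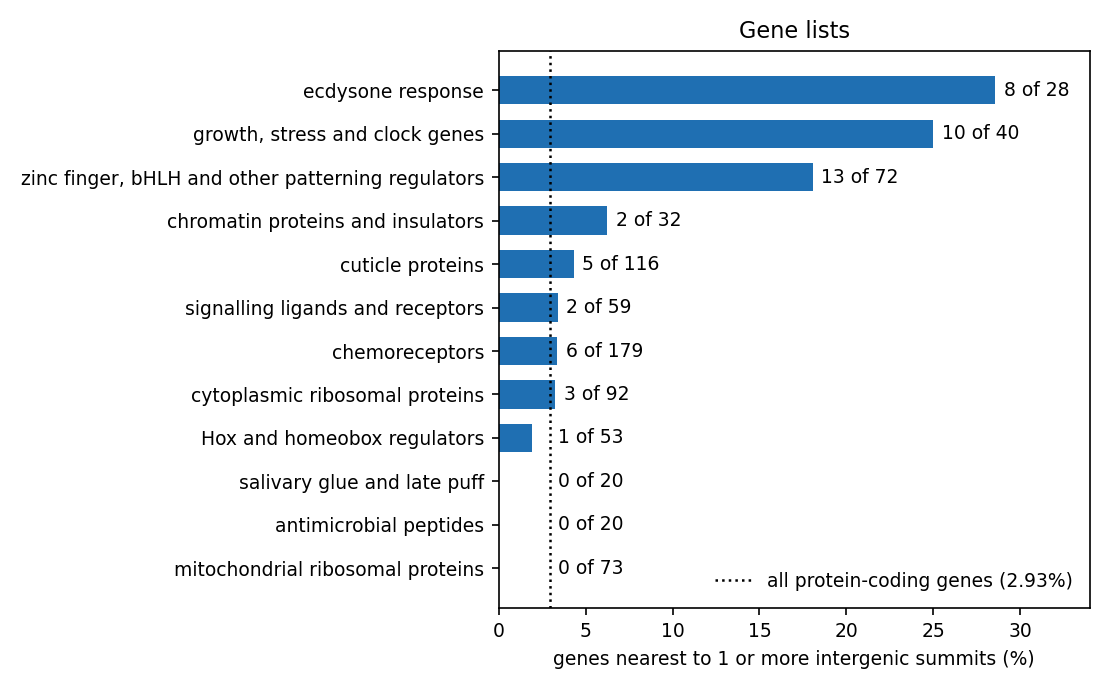
Share of the genes of 12 lists that are the nearest gene of 1 or more intergenic summits (%), with the count of genes beside each bar; the dotted line is the share over all protein-coding genes, 2.93%. Ecdysone response genes stand at 28.6%, and 3 lists have no gene with a summit.

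The steroid hormone ecdysone, released before pupariation, switches on a cascade of nuclear receptors and their targets. Near its response genes, ImpE2, which encodes a secreted or surface protein of imaginal discs, had a summit of 565 at 1535 bp upstream, with 413 in replicate 3 and 177 in replicate 1. A summit 200 bp further along, nearest to Eip63E, a cyclin-dependent kinase gene, had 109 and took its library values from the ImpE2 peak. The nuclear receptor gene Eip75B had 197 at 635 bp upstream, with 131 in replicate 3 and 92.2 in replicate 1. The cell death genes hid and rpr had 348 at 523 bp and 131 at 4455 bp upstream. At hid the overlapping library peaks belonged to a stronger neighbour. The strongest summit of ImpE1 had 227, that of Ldh, the lactate dehydrogenase gene, 167, and that of the zinc finger gene Kr-h1 159, at 3570, 3891 and 1186 bp upstream. The 12 summits of the list ran from 102 to 565. Of the 28 genes 13 (46.4%) had a promoter summit, against 21.9% of all protein-coding genes. Among the genes named, these were ImpE2, hid, Eip75B and Ldh.

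Among growth, stress and clock genes the strongest were near kay, the Fos gene, with 552 at 2639 bp upstream (425 in replicate 3 and 156 in replicate 1), and vri, a bZIP repressor gene of the circadian clock, with 507 at 1290 bp upstream (428 and 102). Myc had 307 and the bZIP gene Atf3 280. The co-chaperone gene stv had 209, Thor 193, the forkhead gene foxo 174, the glutathione transferase gene GstD1 133, and the TOR inhibitor genes chrb and scyl 128 and 118. Of the 40 genes of the list 22 (55.0%) had a promoter summit, against 21.9% of all protein-coding genes. Of the 10 with an intergenic summit 8 had one, against 121 of the 408 nearest genes of all intergenic summits.

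Among patterning regulators, lola, which encodes a family of BTB zinc finger proteins, had 3 summits of which the strongest had 453, with 327 in replicate 3 and 123 in replicate 1. E(spl)m3-HLH had 620 as given above. The remaining 11 genes had strongest summits of 101 to 176. They included bin (176) and slp2 (116), forkhead genes, the proneural gene ato (167), the hairy gene hry (123), the Snail family gene esg (113), and sob (102) and bowl (101) of the odd-skipped family. Median signal over the 17 summits of the list was 123, against 169 over all 583.

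The remaining lists ranged from 0 to 6.25% of genes, beside 2.93% over all genes. For the promoter shares given below, 21.9% of all protein-coding genes had a promoter summit. Per Mb of eligible sequence the chromatin list had 157 summits, from 2 summits in 0.0128 Mb, against 41.2 over all genes. Cytoplasmic ribosomal protein genes (40.0), cuticle protein genes (34.7), chemoreceptor genes (32.4) and signalling genes (28.7) were below 41.2 per Mb, although their shares of genes were above 2.93%. Of 59 signalling ligands and receptors 2 had a summit (3.39%), the Wnt and planar polarity receptor gene fz (202) and the ligand gene hh (138). Of 32 chromatin proteins and insulators 2 did (6.25%), ph-d (224) and Psc (119), both subunits of Polycomb repressive complex 1, while 65.6% of that list had a promoter summit. Of 116 cuticle protein genes 5 did (4.31%), led by Cpr51A (267), and of 179 chemoreceptor genes 6 did (3.35%), led by Gr93d. Of 92 cytoplasmic ribosomal protein genes 3 did (3.26%), RpL22 (210), RpS15Aa (128) and RpS23 (121), and 54.3% had a promoter summit. None of 73 mitochondrial ribosomal protein genes did, with 47.9% bound at the promoter. None of 20 salivary glue and late puff genes and none of 20 antimicrobial peptide genes did. Eligible sequence nearest to these 3 lists came to 0.01045 Mb for the mitochondrial ribosomal protein genes, 0.00279 Mb for the glue and late puff genes and 0.0118 Mb for the antimicrobial peptide genes, and at the density over all genes each would hold less than 1 summit.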

How the data were processed

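Both libraries' peaks were deposited in narrowPeak format. The signal of each peak and its −log10 q are the authors' deposited values, from calls on alignments of each library and of both pooled, with a control alignment, per the text deposited with each library. The optimal list is the pooled peaks left after the irreproducible discovery rate (IDR) step. The caller, aligner and threshold were not given in the sources used here, and read totals were not used, so depth is unknown. The −log10 q reached its ceiling of 3.94 at 354 of the 583 summits and was not used further.

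Summits (1-based, dm6) were placed against the Ensembl BDGP6 annotation, and sequence was read from the RefSeq dm6 assembly. A library's value at a summit is its highest-signal peak that shares 1 bp or more with the optimal peak. A library's top list is its highest-signal peaks, as many as the optimal list holds. Eligible sequence is every arm base that meets the rule; shares of it by neighbour were counted at every 50th base. Shares carry exact (Clopper-Pearson) 95% intervals that cover counting error over summits only.

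Summits and genes were named by rule: the 25 of highest signal; the strongest per chromosome and the 5 strongest per distance bin; the 5 highest and 5 lowest library ratios among summits at or above the median signal; genes nearest to 4 or more summits; the genes of 12 lists with a summit; and the 3 summits on each side of each limit. Sequences are the strongest off the arm not printed, with no exon overlap. Grouped stretches (ex, the Enhancer of split complex, Act5C, COX7AL2 to CG31668, ImpE2, Hsromega) and the ncRNA starts were chosen after their values were seen. The members and lists were chosen with earlier results of these data known. Of the list symbols, 5 were not matched and are not analysed here. The scripts ran on Python 3.11.15 with numpy 2.4.6, pandas 2.3.3 and scipy 1.17.1, and were tested on simulated data. Alternatives were each library's top list, the optimal peaks above their median signal, other gene and start site definitions, distance limits, window sizes, merged peaks and, added after seeing the data, the library peak of nearest summit.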

Additional observations from a re-analysis of the deposited data

How the results depend on the processing

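The share of summits that met the rule (8.81%) ranged from 8.06% to 9.02% with 1 library's top list used instead, and the density (41.2 per Mb) from 37.7 to 42.2. With the optimal peaks above their median signal ("strong peaks" here) the share was 7.58% and the density 17.7 per Mb, as fewer peaks were counted; the share was 7.64% outside gene bodies of every biotype, 6.86% beyond 1000 bp and 5.37% up to 2500 bp. The density was 46.3 per Mb up to 2500 bp and 35.5 with 1 summit per merged region. The ratio of the intergenic to the promoter median signal stayed below 1 in each setting run, between 0.821 and 0.828 with 1 library. It was 0.946 with the strong peaks, 0.842 with all gene bodies, 0.822 with the 5-prime-most start site, 0.836 beyond 1000 bp, 0.861 up to 2500 bp and 0.793 with merged regions. The replicate 3 to replicate 1 ratio was 1.91 at summits of replicate 1's own top list and 2.51 at those of replicate 3's. Each list was picked by the signal of its own library, which enters the ratio. The share in both top lists ran from 66.7% to 72.2% with 1 library, where every summit is in that library's top list by construction. It was 94.0% for the strong peaks, which were kept for their pooled signal, and 58.7% when summits had to lie within 100 bp. The share whose nearest gene was bound ran from 30.3% to 35.8% with 1 library, and was 19.6% for the strong peaks, 21.1% for a 250 bp and 48.5% for a 1000 bp promoter window. The 1000 bp window counts intergenic summits up to 1000 bp from a TSS as promoter summits of their own nearest gene. The upstream share was 80.4% with the 5-prime-most start site, 73.8% beyond 1000 bp, 87.6% up to 2500 bp and 77.5% with merged regions. GC content ran from 37.8% to 38.3% with 1 library and was 37.2% with all gene bodies, 36.9% in 50 bp and 38.7% in 150 bp windows. TATCGATA was present at 0.938% to 1.01% with 1 library, 1.60% with the strong peaks, 1.41% up to 2500 bp and 0.858% in 50 bp windows; ACAGTG at 16.3% to 18.9% with 1 library and, as the window's length implies, 11.0% and 24.4% in windows of 50 and 150 bp. Other motif shares that moved by over 1.5 times, window length apart, were CACGTG (5.2%) and AGGTCA (0.8%) with the strong peaks, CAGGTAG (0.881% beyond 1000 bp, 2.25% up to 2500 bp), GAGAGAGA (0.661% beyond 1000 bp), GGTCACAC (none without replicate 3, with the strong peaks and up to 2500 bp) and TGACGTCA (0.335% without replicate 1). The 50 list genes with a summit became 21 with the strong peaks. Where no construction of the setting gives the reason, the cause was not tested. No paired analysis was possible because the 2 libraries form 1 group. Depth is unknown, the signal's meaning is not stated, at 457 of the 583 summits the library values come from the peak of nearest summit and elsewhere from a neighbour, and 2 libraries of 1 line measure no spread between lines or animals.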
